A study of Mus musculus with 15 samples.

Results

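The 10 genes described here are the mouse genes for sensing lipopolysaccharide and related bacterial molecules. They were taken by symbol from a table of raw exon counts, and all 10 were found among its 38087 gene rows. They are Lbp, Cd14, Ly96, Tlr4, Tlr2, Tlr5, Myd88, Ticam1, Irak2 and Irak3. They were chosen by name, but with earlier results of these data known. All 10 passed the filter on low counts that left 17405 genes for testing.

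Lipopolysaccharide, or endotoxin, is the outer coat of Gram-negative bacteria and reaches the liver in portal blood. The plasma carrier LBP hands it to CD14, which loads it onto MD-2, the product of Ly96, held on the receptor TLR4. The adaptor MyD88 then leads through IRAK kinases to the transcription factor NF-kB and inflammatory genes, and the adaptor TRIF, the product of Ticam1, leads to IRF3 and interferon-type genes. TLR2 and TLR5 use MyD88 for other bacterial molecules. Hepatocytes make LBP and shed CD14 into plasma, while Kupffer cells, the resident macrophages of liver, are known for high TLR4 signalling.

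RNA sequencing was done on cryopreserved primary hepatocytes of CD-1 mice, 200000 cells per well on collagen. The cells attached for 6 h in medium with fetal bovine serum and were then overlaid with a Geltrex matrix. From the next day they spent 24 h in 25% mouse serum, and growth hormone at 8 ng/ml or its vehicle, phosphate-buffered saline, was present for a final 2 h. All groups shared dexamethasone (a glucocorticoid), insulin and antibiotics in the medium, with transferrin, selenous acid, linoleic acid and bovine serum albumin after attachment. The first group was female hepatocytes in serum of germ-free females with growth hormone (3 libraries), and the second the same cells and serum with vehicle (2 libraries). Germ-free mice carry no microbiota. The other 3 groups had vehicle and serum of conventionally raised mice. They were male hepatocytes in male serum (3 libraries), female hepatocytes in male serum (3 libraries) and female hepatocytes in female serum (2 libraries). Donor sex and donor stock cannot be told apart, because each sex came from its own stock. The labels do not say whether replicates were separate cultures or serum pools, so the spread behind each p-value may be technical. No endotoxin measurement was among the data used here, so whether a serum or the hormone preparation carried it was not tested.

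The libraries held 34097400 to 48742274 counts. Summed levels of 8 hepatocyte markers were 7423 to 8869 CPM (counts scaled to library size) with growth hormone and 7376 to 8174 CPM in germ-free serum. They were 20784 to 21889 CPM in male hepatocytes, 8156 to 8430 CPM in female hepatocytes in male serum, and 7364 to 7676 CPM in female serum. Alb held most of the sums in male serum, averaging 17700 CPM in male and 6766 CPM in female hepatocytes. None of the 8 hepatocyte or 12 macrophage markers was at 0 in every library of a group. The macrophage markers Timd4, Marco and Cd5l had 0 counts in some libraries and at most 10 in any. Macrophage markers other than Cd68, a lysosomal protein that is not restricted to macrophages, summed to 6.60 to 12.3 CPM over all 13 libraries. Replicate 2 of female conventional serum and replicate 1 of the hormone group were richer in Xist and Malat1 than their groups' other libraries. Several counts of calls in the sera are given without these Xist-rich libraries as well. Disagreement between replicates was also scored pair by pair, with a chi-square value scaled to the number of genes compared. The largest scores involved replicate 1 of female hepatocytes in male serum, at 53.36 and 44.97, against 21.47 for its group's other pair. Pairs with hormone replicate 1 scored 40.98 and 36.98, against 9.26, and the female conventional serum pair scored 34.17. Each replicate was also left out in turn.

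RefSeq promoter windows on GRCm38.p6, from 250 bases before to 50 after the annotated start, were at hand for Tlr2, Tlr5, Myd88, Ticam1, Irak2 and Irak3. They were searched on both strands for the NF-kB consensus, which 4.51% of all 32851 windows hold, and for the STAT-type motif TTCNNNGAA, which 8.3% hold. The Tlr2 window is shown because Tlr2 was the member that changed with growth hormone. The windows of Irak3 and Tlr5 are shown because both genes were lower in germ-free and in male serum than in female conventional serum. Capitals mark motif matches.
Tlr2, chr3:83841559-83841858, minus strand: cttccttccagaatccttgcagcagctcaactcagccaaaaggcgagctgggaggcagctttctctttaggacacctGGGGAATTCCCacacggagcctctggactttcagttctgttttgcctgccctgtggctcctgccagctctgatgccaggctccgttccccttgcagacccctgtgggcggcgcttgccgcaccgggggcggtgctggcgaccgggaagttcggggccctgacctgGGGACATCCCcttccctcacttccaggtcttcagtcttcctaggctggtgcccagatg
Irak3, chr10:120202081-120202380, minus strand: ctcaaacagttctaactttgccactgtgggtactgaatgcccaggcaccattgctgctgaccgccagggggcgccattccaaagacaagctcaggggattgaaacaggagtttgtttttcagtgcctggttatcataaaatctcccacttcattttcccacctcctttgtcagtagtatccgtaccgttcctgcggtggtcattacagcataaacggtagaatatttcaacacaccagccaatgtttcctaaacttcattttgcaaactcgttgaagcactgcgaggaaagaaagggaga
Tlr5, chr1:182954538-182954837, plus strand: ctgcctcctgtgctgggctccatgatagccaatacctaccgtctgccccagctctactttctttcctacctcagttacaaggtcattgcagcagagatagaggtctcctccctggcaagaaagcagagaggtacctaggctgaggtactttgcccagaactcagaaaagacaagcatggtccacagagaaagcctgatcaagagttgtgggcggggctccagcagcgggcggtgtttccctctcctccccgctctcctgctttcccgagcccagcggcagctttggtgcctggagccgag
The Tlr2 window held 3 matches to the NF-kB consensus. Of these, 2 overlap on a single stretch that begins 173 bases before the start, and the other begins 8 bases before it. The windows of Irak3, including that of its second annotated start, and of Tlr5, Ticam1 and Irak2 held neither motif. Myd88 held 1 TTCNNNGAA match and no NF-kB match. A match describes letters and does not show that a factor bound there.

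The carrier and co-receptor were far more abundant than the receptor itself. On the level scale of CPM per kilobase of exon, Cd14 had a median of 166 over the 13 libraries and stood at percentile 97.6 of the 16994 tested genes with a known length. The genes Tlr2, Myd88, Lbp, Ly96, Irak2 and Irak3 lay in a middle band of 15.9, 15.5, 12.5, 11.6, 10.7 and 9.59 CPM per kilobase, in that order. Ticam1 had 3.01 CPM per kilobase. The lowest were Tlr5 at 0.685 (percentile 25.3) and Tlr4 at 0.615 (percentile 24.1). With the longest transcript as the length, Lbp stood at 23.9, Ly96 at 17.8, Irak2 at 14.7 and Tlr4 at 0.838 CPM per kilobase.

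**Figure D1:**
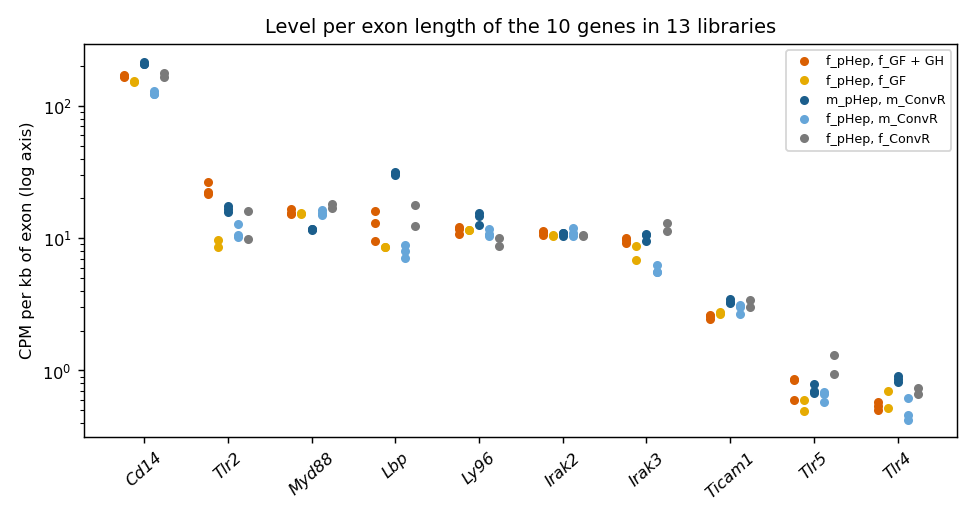
Level of each of the 10 genes in CPM per kilobase of exon (log axis), 1 point per library and 1 colour per group. Cd14 lies above 122 in every library, and Tlr4 and Tlr5 lie below 1.31.

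When growth hormone was added to germ-free serum, Tlr2 rose and was the 1 of 10 members past the threshold, an adjusted p of 0.05. Over all genes tested, 0.511% rose and 0.0747% fell. TLR2 is the receptor for bacterial lipoproteins, encoded at chr3:83836272-83841767 on the minus strand of mm10. It stood at 80.1, 65.6 and 67.9 CPM with growth hormone, against 25.9 and 29.0 CPM with vehicle (3786, 2760 and 3335 counts, against 1078 and 1042). The lowest hormone library was above the highest vehicle library, and above every other library of the series. The log2 fold change was 1.37 ± 0.16 (SE; n = 3 and 2; 95% interval 1.04 to 1.71; adjusted p = 0.000134 by edgeR's quasi-likelihood test with Benjamini-Hochberg adjustment). Leaving out any 1 library gave 1.28 to 1.46. Because RNA came from whole wells, fewer cells of a type and less RNA per cell cannot be told apart here or below. Macrophage markers summed to 90.8 to 111 CPM with growth hormone and 128 to 136 CPM with vehicle. Without Cd68, which held most of that sum, they came to 6.60 to 9.67 CPM with growth hormone and 7.88 to 9.50 CPM with vehicle, and the groups overlapped. Of the 9 tested, 0 passed edgeR's test, 3 had an unadjusted p under 0.05 and 1 passed the DESeq2 test. Among them Adgre1, which encodes the macrophage antigen F4/80, averaged 0.529 ± 0.167 CPM with growth hormone and 0.537 ± 0.147 CPM with vehicle (SD, n = 3 and 2). The median log2 fold change of the 9 was -0.20. The Kupffer cell lectin Clec4f averaged 1.79 ± 0.346 CPM with growth hormone and 3.01 ± 0.515 CPM with vehicle, without overlap. Cd68 had 84.2 to 102 CPM with growth hormone and 119 to 129 CPM with vehicle (log2 fold change -0.37, adjusted p = 0.166 by edgeR). Csf1r had 0.698 to 0.835 CPM with growth hormone and 0.865 to 0.948 CPM with vehicle. Lyz2 had 0.978 to 1.21 CPM with growth hormone and 1.13 to 1.39 CPM with vehicle. Ptprc, the leukocyte antigen CD45, averaged 0.883 ± 0.160 CPM with growth hormone and 0.357 ± 0.165 CPM with vehicle, without overlap (log2 fold change 1.32, adjusted p = 0.167 by edgeR). C1qb, a complement gene of macrophages, averaged 0.735 ± 0.248 CPM with growth hormone and 0.469 ± 0.0855 CPM with vehicle, also without overlap. Their part in the Tlr2 result was not tested.

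The receptor complex for lipopolysaccharide itself did not pass the threshold with growth hormone. Tlr4 (chr4:66827584-66930284, plus strand) stood at 2.77, 3.21 and 2.97 CPM with growth hormone, against 3.92 and 2.90 CPM with vehicle, and the groups overlapped. Its log2 fold change was -0.20 (95% interval -0.58 to 0.18). Ly96 (chr1:16688051-16709611, plus strand) averaged 11.8 ± 0.700 CPM with growth hormone and 11.8 ± 0.0519 CPM with vehicle (SD, n = 3 and 2), with an interval of -0.23 to 0.23. These intervals leave room for modest changes, but neither reaches the lower bound of 1.04 for Tlr2. Cd14 had 289.8, 287 and 299 CPM with growth hormone, against 264 and 269 CPM with vehicle. Its libraries did not overlap, but its log2 fold change of 0.13 ± 0.06 (SE) had an adjusted p of 0.361 (edgeR). Lbp (chr2:158306493-158332852, plus strand) had 77.7, 46.3 and 63.3 CPM with growth hormone, against 41.8 and 41.4 CPM with vehicle. Its libraries did not overlap either, and the log2 fold change of 0.59 (interval 0.22 to 0.95) had an adjusted p of 0.167 (edgeR). Without hormone replicate 2, Lbp stood at 0.76 with an adjusted p of 0.0178, and without the Xist-rich hormone replicate 1 at 0.40 with an adjusted p of 0.59 (edgeR).

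Among the members, none of the adaptors and kinases downstream passed. Myd88 (chr9:119335934-119341411, minus strand) stood at 0.04 on the log2 scale (interval -0.10 to 0.18), Ticam1 (chr17:56269319-56276786, minus strand) at -0.09 (interval -0.31 to 0.14) and Irak2 (chr6:113638467-113695026, plus strand) at 0.07 (interval -0.07 to 0.21). IRAK2 is a kinase that prolongs signalling. Irak3 (chr10:120141648-120202130, minus strand), whose product IRAK-M restrains the pathway, had 36.7, 35.6 and 34.1 CPM with growth hormone, against 32.4 and 25.3 CPM with vehicle. Its groups did not overlap, and the log2 fold change of 0.29 (interval 0.08 to 0.51) had an adjusted p of 0.253 (edgeR). Tlr5 (chr1:182954788-182976044, plus strand), the flagellin receptor, stood at 0.49 (interval 0.07 to 0.91) with an adjusted p of 0.311 (edgeR). Libraries of Ticam1, Irak2 and Tlr5 did not overlap between these groups either. The share of all genes without overlap was not counted, so lack of overlap alone is weak evidence in any comparison.

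**Figure D2:**
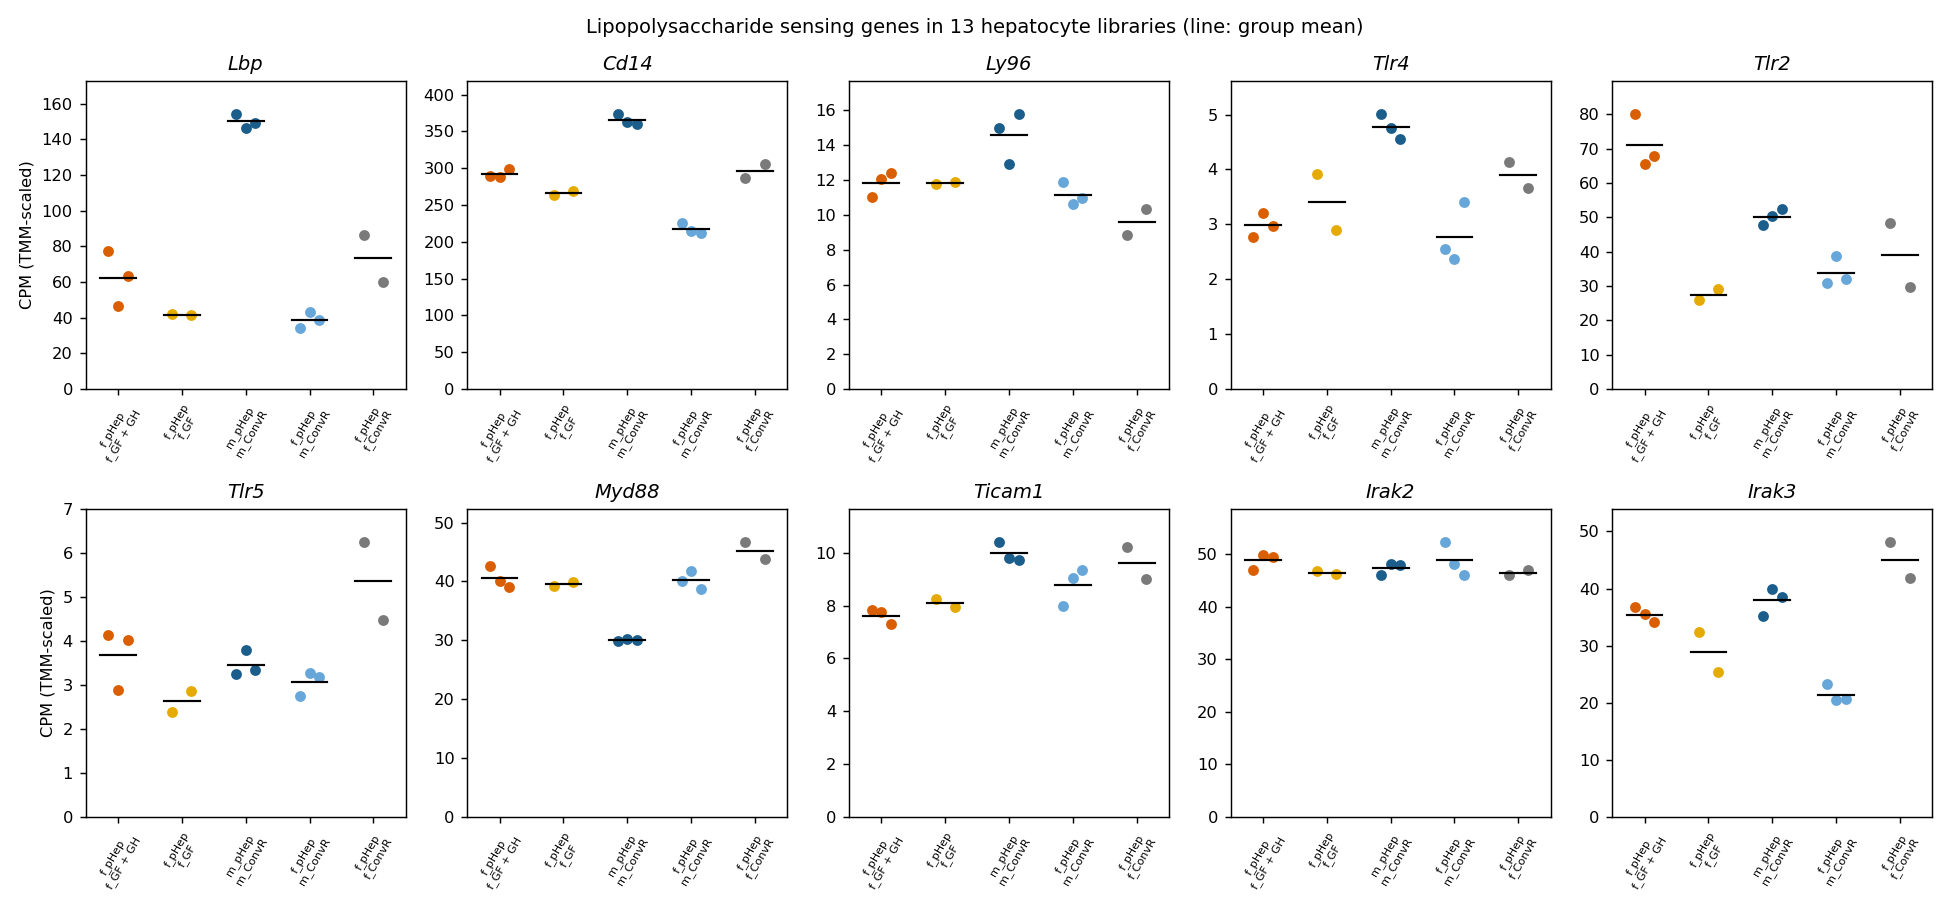
TMM-scaled CPM of the 10 genes (linear axes from 0) in the 13 libraries, 1 point per library, with a line at each group mean. Tlr2 is highest in the 3 hormone libraries (65.6 to 80.1 CPM), Lbp in the 3 male hepatocyte libraries, and Irak3 in female conventional serum (41.8 and 48.2 CPM).

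Lists of genes around the members were counted in the same comparison. Of 24 NF-kB responses to lipopolysaccharide, 14 rose and 0 fell, and their median log2 fold change was 1.11, against -0.00 over all genes. These genes were listed with earlier results of these data known, so the count is not independent evidence of their direction. Among them Il1a, a cytokine that acts through MyD88, had 467, 524 and 539 counts with growth hormone, against 3 and 4 with vehicle. Cxcl1, a neutrophil attractant, averaged 250.5 ± 20.4 CPM with growth hormone and 98.3 ± 6.72 CPM with vehicle (SD, n = 3 and 2). Tnf had 76, 74 and 67 counts against 14 and 6, and Il6 had 101, 154 and 121 counts against 2 and 0. Saa3 and Lcn2 did not pass, with log2 fold changes of 0.21 and 0.34. Tnf lost its call in 6 of the 12 alternatives run, among them leaving out either vehicle replicate and leaving out hormone replicate 1 (adjusted p = 0.0668 by edgeR).

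Of 19 brakes on Toll-like receptor signalling tested, 4 rose and 0 fell. They were Nfkbiz (log2 fold change 1.23), Tnfaip3 (1.22), Zc3h12a (1.06) and Nfkbia (0.77). Tnfaip3 encodes A20, which removes ubiquitin signals, and Nfkbia encodes an inhibitor that holds NF-kB in the cytoplasm. Of 19 adaptors and kinases beside the members, 1 rose, Ikbke (0.67). Tirap, Irak1, Irak4 and Traf6 stood between -0.06 and 0.15, and Ticam2 had too few counts to be tested. Without vehicle replicate 2 or 3, Zc3h12a (adjusted p = 0.163 and 0.121 by edgeR) and Ikbke (0.117 and 0.281) did not pass, and Ikbke also missed the threshold without hormone replicate 1 (0.0581) or 3 (0.0571).

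The TRIF and IRF3 responses gave other counts. Of 14 tested, 1 rose (Irf1, 0.62) and 1 fell (Oasl1, -0.50), and their median was 0.00. Cxcl10, an interferon-type chemokine, averaged 16.5 ± 3.79 CPM with growth hormone and 18.9 ± 0.898 CPM with vehicle (SD, n = 3 and 2), and did not pass. Without vehicle replicate 2, neither Irf1 nor Oasl1 passed edgeR's test. Oasl1 lost its call in 5 of the 12 alternatives run, among them without vehicle replicate 3 and without hormone replicate 1 (adjusted p = 0.139 by edgeR). Of 10 other Toll-like receptors and co-receptors tested, 0 passed edgeR's test in either direction, 2 had an unadjusted p under 0.05 and 1 passed the DESeq2 test. Of 6 sensors of other bacterial molecules, 2 rose. Ripk2, the kinase of the NOD receptors, averaged 71.8 ± 11.0 CPM with growth hormone and 24.0 ± 0.399 CPM with vehicle, and Clec4e had 25, 52 and 66 counts against 0 and 0. With 3 counts set as the vehicle group's limit, Clec4e was at least 26.7-fold higher. Of 11 genes of intracellular lipopolysaccharide sensing, 1 rose, Il1b, which is also among the NF-kB responses, and 7 had an unadjusted p under 0.05. Nlrp3 had 40, 73 and 57 counts against 2 and 9, and just missed the threshold (log2 fold change 3.08, adjusted p = 0.057 by edgeR). Pycard, at few counts, stood at -1.63 (adjusted p = 0.21 by edgeR). Casp4, the caspase that binds lipopolysaccharide in the cytosol, stood at 0.50 and did not pass. Of 11 genes of lipopolysaccharide carriage and clearance beside Lbp, 0 passed edgeR's test, 3 had an unadjusted p under 0.05 and 1 passed the DESeq2 test.

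**Figure D3:**
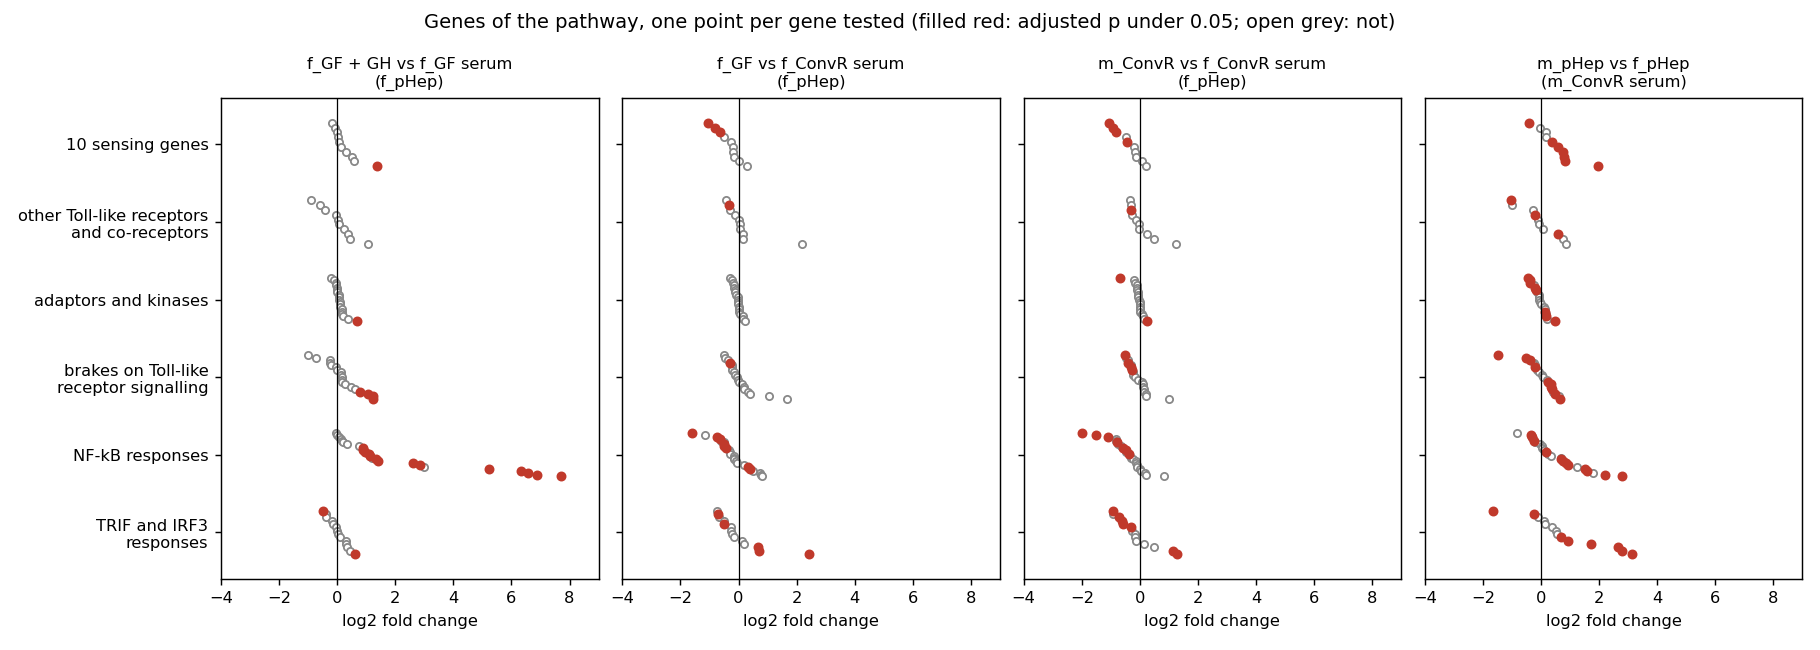
Log2 fold change of each tested gene (1 point per gene) in the 10 sensing genes and 5 lists around them, in 4 comparisons. In the growth hormone panel 14 of 24 NF-kB responses are filled to the right of 0, against 1 of 10 sensing genes and 1 of 14 TRIF and IRF3 responses.

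Germ-free serum was next compared with female conventional serum on female hepatocytes without hormone. The vehicle libraries of the hormone comparison are the germ-free libraries here, so the values of the 2 comparisons are not independent. Of the 10 members 3 fell and 0 rose, against 3.54% of all genes lower and 2.86% higher. Irak3 had 32.4 and 25.3 CPM in germ-free serum, against 48.2 and 41.8 CPM in conventional serum, without overlap. It fell by 0.64 on the log2 scale (SE 0.110, adjusted p = 0.00315 by edgeR). Tlr5 had 2.38 and 2.87 CPM in germ-free serum, against 6.26 and 4.49 CPM in conventional serum, also without overlap. Its log2 fold change was -1.04 ± 0.21 (SE, adjusted p = 0.00792 by edgeR). Lbp had 41.8 and 41.4 CPM in germ-free serum, against 86.5 and 60.2 CPM in conventional serum. It fell by 0.82 on the log2 scale (SE 0.184, adjusted p = 0.0147 by edgeR). The 2 conventional libraries lay far apart for Lbp, and the higher one, replicate 2, is one of the Xist-rich libraries.

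Each of these 3 calls was lost when some single library was left out, which leaves a lone library in its group. Of the 11 alternatives run, Irak3 lost its call in 1, Tlr5 in 3 and Lbp in 4. Without conventional replicate 2, Lbp stood at -0.54 (adjusted p = 0.22) and Tlr5 at -0.78 (adjusted p = 0.131), while Irak3 kept its call. Without germ-free replicate 3, Irak3 stood at -0.48 (adjusted p = 0.0526) and Lbp at -0.81 (adjusted p = 0.105). Without germ-free replicate 2, Lbp (-0.83, adjusted p = 0.0941) and Tlr5 (-0.91, adjusted p = 0.0949) did not pass edgeR's test. Without both Xist-rich libraries, 1 member was called, and Lbp had an adjusted p of 0.0788 and Tlr5 one of 0.12.

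Among the members that did not pass, Tlr2 had 25.9 and 29.0 CPM in germ-free serum, against 48.4 and 29.7 CPM in conventional serum. Its log2 fold change of -0.51 had an adjusted p of 0.0861 (edgeR). Tlr2 passed in 3 of the 11 alternatives run, among them the DESeq2 test, which called 4 members. With 1 library left out it ranged from -0.82, without conventional replicate 3, to -0.12. Cd14 stood at -0.15, Myd88 at -0.19, Ticam1 at -0.25 and Tlr4 at -0.19. Of all 10 members, 9 had a log2 fold change under 0 and 8 had an unadjusted p under 0.05 by edgeR. The share of all genes with such a p was not counted. Ly96 stood at 0.30, the 1 member with a higher mean in germ-free serum, and Irak2 at -0.00. Of the 24 NF-kB responses, 6 fell and 2 rose. Hamp, which encodes the iron hormone hepcidin, averaged 27.0 ± 0.923 CPM in germ-free serum and 82.5 ± 23.4 CPM in conventional serum (SD, n = 2 each). Cxcl1, at -0.49, also fell, and Relb (0.40) and Nfkb2 (0.34), subunits of NF-kB, rose. Of 14 TRIF and IRF3 responses, 3 rose and 2 fell, with Cxcl10 at 18.9 ± 0.898 CPM in germ-free serum and 3.54 ± 0.104 CPM in conventional serum. Of 11 carriage genes 2 fell, Apoa1 (-0.97) and Alpl (-0.86), whose products are a lipoprotein that binds lipopolysaccharide and a phosphatase that can remove its phosphates. Of 8 hepatocyte markers 3 fell, and 2 without the Xist-rich libraries. Of 9 macrophage markers 0 passed edgeR's test or the DESeq2 test, and 1 had an unadjusted p under 0.05. Their part in these results was not tested.

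These list counts in germ-free serum also changed when single libraries were left out. Of the NF-kB responses, 8 were called with all libraries, 1 without the Xist-rich ones, 0 without conventional replicate 2 or germ-free replicate 2, 3 without germ-free replicate 3 and 6 without conventional replicate 3. Without the Xist-rich libraries Hamp stood at -1.29 (adjusted p = 0.0597 by edgeR), and it missed the threshold without either germ-free replicate too. Cxcl1 did not pass without conventional replicate 2 (adjusted p = 0.0598) or germ-free replicate 2 (0.0861). Of the TRIF and IRF3 responses, 5 were called, against 3 without the Xist-rich libraries and 2 without germ-free replicate 2, and Cxcl10 was called each time. Of the carriage genes 2 were called, against 1 without the Xist-rich libraries, 0 without germ-free replicate 2 and 4 without conventional replicate 3. Alpl stood at -0.75 (adjusted p = 0.123) without the Xist-rich libraries, and neither Alpl nor Apoa1 (-0.89, adjusted p = 0.0609) passed edgeR's test without germ-free replicate 2.

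Male conventional serum was compared with female conventional serum on the same female hepatocytes. The female serum libraries also served the comparison above. Of the 10 members 4 fell and 0 rose, against 4.85% of all genes lower and 3.95% higher. Irak3 had 23.2, 20.4 and 20.6 CPM in male serum, against 48.2 and 41.8 CPM in female serum, without overlap. It fell by 1.07 on the log2 scale (SE 0.0996, adjusted p = 1.055e-05 by edgeR), and stood at rank 17 of all genes by p. Leaving out any 1 library gave -1.17 to -0.97. Cd14 had 226, 215 and 212 CPM in male serum, against 286 and 305 CPM in female serum. It fell by 0.44 (SE 0.0579, adjusted p = 0.000208 by edgeR), with -0.49 to -0.40 when any 1 library was left out. Lbp had 34.0, 43.1 and 38.7 CPM in male serum, against 86.5 and 60.2 CPM in female serum, and fell by 0.93 (adjusted p = 0.00262 by edgeR). Tlr5 had 2.76, 3.28 and 3.19 CPM in male serum, against 6.26 and 4.49 CPM in female serum, and fell by 0.81 (adjusted p = 0.013 by edgeR). Neither gene overlapped between the sera. Without female serum replicate 2, Lbp stood at -0.65 (adjusted p = 0.0549) and Tlr5 at -0.55 (adjusted p = 0.196). Without male serum replicate 1, Tlr5 had an adjusted p of 0.0502 (edgeR). In all, Tlr5 lost its call in 4 of the 12 alternatives run.

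Tlr4 had 2.54, 2.36 and 3.42 CPM in male serum, against 4.13 and 3.66 CPM in female serum. The groups did not overlap, but the log2 fold change of -0.49 had an adjusted p of 0.104 (edgeR), and of 0.0312 without male serum replicate 3. Tlr2 overlapped between the sera at -0.21 (adjusted p = 0.426), and its sign turned to 0.18 without replicate 2 of female serum. With replicate 3 left out instead it stood at -0.52 (adjusted p = 0.0233 by edgeR). Ly96 (0.22), Myd88 (-0.17), Ticam1 (-0.13) and Irak2 (0.07) did not pass. Of the 24 NF-kB responses, 7 fell and 0 rose. Cxcl2 averaged 9.59 ± 1.79 CPM in male serum and 27.2 ± 2.19 CPM in female serum (SD, n = 3 and 2). Cxcl1 averaged 64.0 ± 6.54 CPM in male serum and 137.7 ± 3.84 CPM in female serum. Of 19 brakes 4 fell, among them Tnfaip3 (-0.40) and Nfkbia (-0.26). Of 14 TRIF and IRF3 responses 2 rose, Cxcl11 (1.26) and Cxcl10 (1.13), and 5 fell. Of 19 adaptors and kinases 1 rose, Traf3 (0.24), and 1 fell, Ikbke (-0.69). Of 9 macrophage markers 1 fell, Cd68 (-0.38). It also passed without the Xist-rich libraries (adjusted p = 0.0437), but not without either female serum replicate (0.0747 and 0.191 by edgeR) or male serum replicate 2 (0.0975) or 3 (0.0941). Its part in these results was not tested.

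The list counts between male and female serum moved with the libraries as well. Of the NF-kB responses, 7 were called with all libraries, 3 without the Xist-rich ones or without female serum replicate 2 alone, and 10 without male serum replicate 2. Cxcl1 and Cxcl2 were called each time. Of the brakes, 4 were called with all libraries, 1 without the Xist-rich ones, 0 without female serum replicate 2 and 2 without male serum replicate 2. Without the Xist-rich libraries, Nfkbia had an adjusted p of 0.192 and Tnfaip3 one of 0.0757 (edgeR). Nfkbia lost its call in 6 of the 12 alternatives run and Tnfaip3 in 3. Of the TRIF and IRF3 responses, 7 were called with all libraries, 3 without the Xist-rich ones, 2 without female serum replicate 2 and 4 without male serum replicate 1. Cxcl10 lost its call in 5 of the 12 alternatives run, among them without the Xist-rich libraries. Traf3 lost its call in 6 of the 12 alternatives run. Among them were those without male serum replicate 1 (adjusted p = 0.0839 by edgeR) or 3 (0.0636) or female serum replicate 3. Ikbke was called each time.

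Male hepatocytes were compared with female hepatocytes in the same male serum. Of the 10 members 6 rose and 1 fell, against 17.6% of all genes higher and 19% lower. With library size as the scaling, 33.6% of called genes were higher in male cells, against 48% with TMM scaling, and the median of all genes moved from -0.02 to -0.11 on the log2 scale. The same 7 members were called under every alternative and with any 1 library left out. Lbp had 154, 147 and 149 CPM in male hepatocytes, against 34.0, 43.1 and 38.7 CPM in female hepatocytes. The log2 fold change was 1.96 ± 0.15 (SE, adjusted p = 6.43e-08 by edgeR), a 3.88-fold difference with no overlap. Cd14 had 373, 362 and 360.4 CPM in male hepatocytes, against 226, 215 and 212 CPM in female hepatocytes, and rose by 0.75 (SE 0.0525, adjusted p = 1.6e-08 by edgeR).

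Tlr4, Tlr2 and Ly96 rose as well. Tlr4 had 5.01, 4.75 and 4.55 CPM in male hepatocytes, against 2.54, 2.36 and 3.42 CPM in female hepatocytes, a log2 fold change of 0.78 ± 0.16 (SE, adjusted p = 0.00126 by edgeR). Tlr2 had 47.8, 50.4 and 52.5 CPM in male hepatocytes, against 30.8, 38.7 and 32.0 CPM in female hepatocytes, at 0.57 ± 0.14 (SE, adjusted p = 0.0036 by edgeR). Ly96 had 15.0, 12.9 and 15.8 CPM in male hepatocytes, against 11.9, 10.7 and 11.0 CPM in female hepatocytes, at 0.38 ± 0.10 (SE, adjusted p = 0.00563 by edgeR). None of these 3 genes overlapped between the stocks. Irak3 also rose, by 0.83 ± 0.09 (SE, adjusted p = 3.45e-06 by edgeR), and stood at 35.2, 39.9 and 38.6 CPM in male hepatocytes, against 23.2, 20.4 and 20.6 CPM in female hepatocytes. Myd88 was the member that fell. It had 29.9, 30.3 and 30.1 CPM in male hepatocytes, against 40.0, 41.8 and 38.8 CPM in female hepatocytes, at -0.42 ± 0.06 (SE, adjusted p = 4.49e-05 by edgeR). Tlr5 (0.17), Ticam1 (0.18) and Irak2 (-0.05) did not pass.

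Markers of other liver cells moved between the stocks as well. Of 8 markers of sinusoidal endothelium 7 rose, and they summed to 52.9 to 55.2 CPM in male hepatocytes and 16.7 to 19.9 CPM in female hepatocytes. Of 8 hepatocyte markers 6 rose and 1 fell. Of 9 macrophage markers 1 rose, Cd68 (0.96), and the list without it summed to 7.77 to 10.5 CPM in male hepatocytes and 9.88 to 12.3 CPM in female hepatocytes. The part of these cells in the members' differences was not tested. Of 19 adaptors and kinases 3 rose and 5 fell, with falls in the kinase Irak1 (-0.37) and the ubiquitin ligase Traf6 (-0.18). Irak1 and Myd88 kept their calls in all 13 alternatives, and Traf6 lost its call in 5. Of the adaptors and kinases, 8 were called with all libraries and 5 without male hepatocyte replicate 2 or 3. Of 19 brakes 6 rose and 4 fell, with Tnfaip3 at 0.66 and Sigirr, an inhibitory receptor, at -0.52. Of the 24 NF-kB responses 9 rose and 3 fell, with Hamp at 2.78 and Lcn2 at 0.92 among the rises and Cxcl2 at -0.30 among the falls. Cxcl2 lost its call in 8 of 13 alternatives, and stood at -0.42 to -0.16 with 1 library left out. Of 14 TRIF and IRF3 responses 6 rose and 2 fell, with Cxcl10 at 3.13 and Rsad2 at 2.64.

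**Figure D4:**
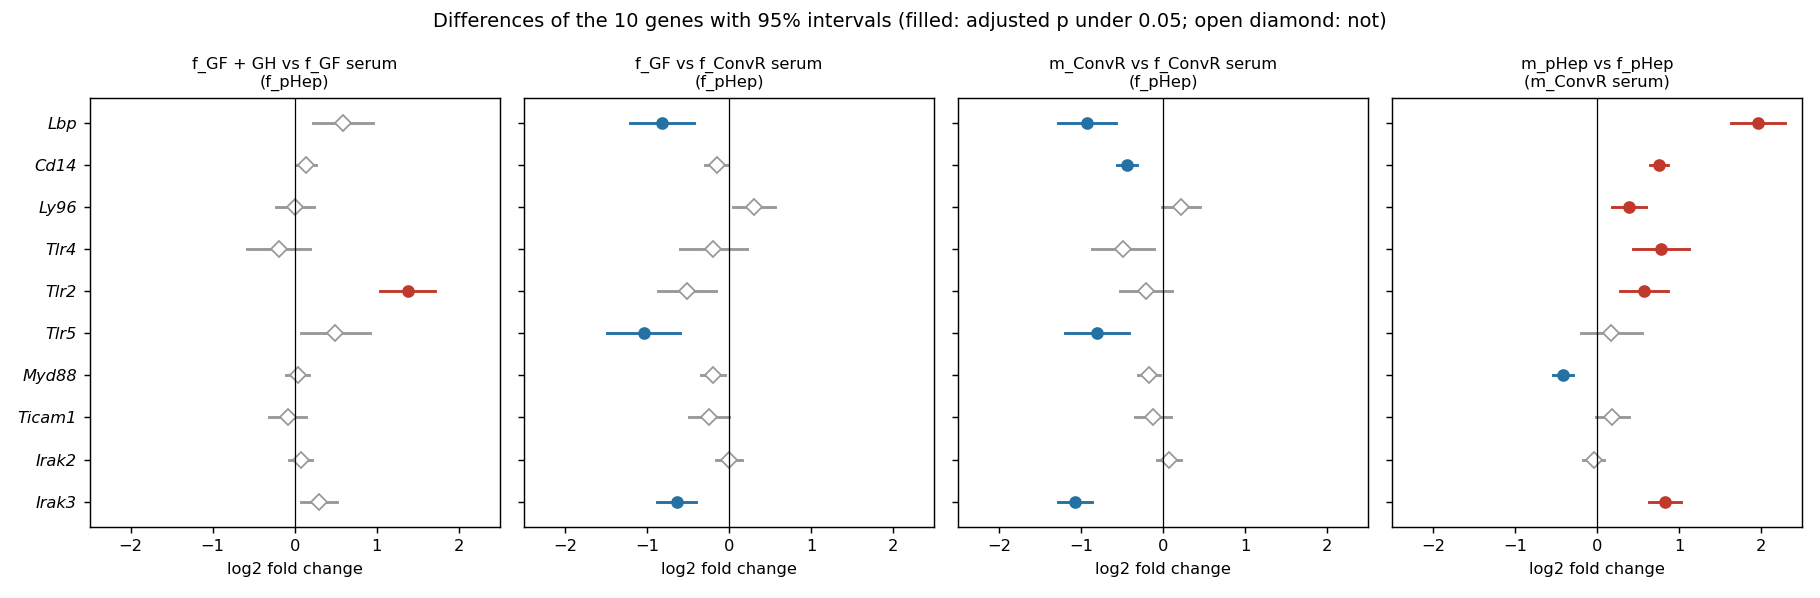
Log2 fold change of the 10 genes with 95% intervals in the 4 comparisons, filled where edgeR's adjusted p was under 0.05. Tlr2 (1.37) is filled with growth hormone, 3 and 4 genes are filled left of 0 with the sera, and Lbp (1.96) lies farthest right between hepatocyte stocks.

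Across the 5 groups the members differed in how much they varied. The highest group mean was 3.88 times the lowest for Lbp, 2.59 for Tlr2, 2.10 for Irak3, 2.05 for Tlr5, 1.72 for Tlr4, 1.68 for Cd14, 1.52 for Ly96, 1.503 for Myd88 and 1.31 for Ticam1. Irak2 varied least, with a ratio of 1.05 and 46.0 to 52.4 CPM over all libraries, and every pair of neighbouring groups overlapped. Male hepatocytes were highest for Lbp, Cd14, Ly96 and Tlr4, without overlap with the next group for these 4 genes. How many of all genes show such an order without overlap was not counted. Below them, Cd14 was ordered as female serum, hormone, germ-free serum and male serum on female cells, where female serum and hormone overlapped and the later steps did not. Irak3 was highest in female conventional serum (45.0 ± 4.54 CPM, SD, n = 2), above male hepatocytes (37.9 ± 2.402 CPM, n = 3) without overlap. Hormone libraries followed and overlapped with male hepatocytes, then germ-free serum and male serum on female cells, each lower without overlap. Tlr5 and Myd88 were highest in female conventional serum too, without overlap with the hormone group that came next.

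By Pearson's r of log2 CPM over the 13 libraries, which share 5 groups and 2 cell stocks, the genes most like Tlr2 were Ell2 (r = 0.97), Amotl2 (0.95) and Ccl7 (0.95). Those most like Irak3 were Crp (0.93), Scaper (0.91) and Tmem154 (0.91). Lbp was most like Gpt2, Iigp1 and Hsd17b2 (0.99 each), and Cd14 most like Sec22a, Cyp3a13 and Azi2 (0.96 each). These values describe likeness over few libraries. Myd88 shares 290 bases of exon, 11.3% of its length, with Acaa1a on the opposite strand, and Irak3 shares 192 bases, 5.2%, with Tmbim4. The kit marked strand, but the strand setting of the counting is not given in the sources used here, so reads from these stretches cannot be told apart. Acaa1a stood at 0.16 (adjusted p = 0.1247 by edgeR) between hepatocyte stocks, where Myd88 fell. It fell by 0.49 in germ-free serum (adjusted p = 0.00562) and by 0.45 in male serum (adjusted p = 0.00347), where Myd88 did not pass edgeR's test. Tmbim4 stood at -0.13 (adjusted p = 0.308) in germ-free serum and -0.08 (adjusted p = 0.453) in male serum, where Irak3 fell. Between hepatocyte stocks, where Irak3 rose, Tmbim4 rose by 0.35 (adjusted p = 0.000178 by edgeR). The part of these neighbours in the members' values was not tested.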

How the data were processed

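The authors deposited raw counts of reads over exons per gene, whole numbers without scaling. Reads were aligned with STAR 2.4.0i to mm10, per the submitters' processing notes. How reads were counted (program, annotation, strand setting) is not given in the sources used here. The labels list 15 samples. Of the columns, 2 share one name and were used in no step, which left 13 libraries. The planned analysis had assumed all 15 samples.

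From the deposited counts, CPM were computed here with TMM-scaled library sizes. Genes were filtered with filterByExpr (minimum count 10), and 1 model of 5 groups without covariates was fitted with edgeR 4.0.16 (R 4.3.3; 8 residual degrees of freedom). The quasi-likelihood test was two-sided, with Benjamini-Hochberg adjustment over 17405 genes and a threshold of 0.05. The script was tested on simulated data. Exon lengths and positions came from GENCODE M21 on mm10, and sequences from RefSeq. Ratios and floors of low counts cover counting error only.

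Alternatives were DESeq2 size factors, library size only, no filter, the DESeq2 1.42.0 test, only the 2 groups compared, a replicate block, no Xist-rich libraries, and leaving out each replicate.

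The members and 16 gene lists (199 memberships, 198 matched) were chosen with earlier results of these data known. Named genes were all members, some pathway genes whatever their values, and up to 4 called genes per list and comparison with the largest fold change, no overlap and at least 50 counts on average. Clec4e, Relb, Nfkb2, Ptprc, C1qb, Nlrp3, Pycard and genes beside small counts outside this rule were chosen with values in view.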

Additional observations from a re-analysis of the deposited data

How the results depend on the processing

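The Tlr2 call with growth hormone and the 7 member calls between hepatocyte stocks held under all alternatives run. With growth hormone 102 genes were called, against 796 without the filter, 274 by the DESeq2 test, 62 with the replicate block, 156 with the 2 groups alone and 33 to 190 with 1 library left out. Members called were 1, against 2 without the filter (Lbp added) and 1 to 2 with 1 library left out. With germ-free serum 1115 genes were called, against 1731 without the filter, 367 without the Xist-rich libraries, 611 with the 2 groups alone and 274 to 1225 with 1 library left out. Members called were 3, against 1 without the Xist-rich libraries and 1 to 4 with 1 library left out. With male serum 1532 genes were called, against 825 without the Xist-rich libraries, 468 with the 2 groups alone and 663 to 1652 with 1 library left out. Members called were 4, and 2 to 5 with 1 library left out. The causes were not tested. Leaving out a germ-free or female serum replicate leaves a lone library that is assumed to vary like the others.

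Signs that turned belonged to differences that did not pass. With growth hormone, Ly96 stood at 0.00 with DESeq2 size factors and by the DESeq2 test, 0.01 without the filter, 0.05 without the Xist-rich libraries and -0.04 to 0.04 with 1 library left out. Traf6 stood at 0.03 with the block and 0.04 without the Xist-rich libraries, and Myd88 at -0.00 there. With 1 library left out, Traf6 ranged from -0.06 to 0.04, Myd88 from -0.00 to 0.06, Tlr4 from -0.39 to 0.04 and Irak1 from -0.15 to 0.09. With germ-free serum, Irak2 stood at 0.00 with DESeq2 size factors and by the DESeq2 test and at 0.01 with the 2 groups alone. With 1 library left out, Irak2 ranged from -0.02 to 0.01, Tlr4 from -0.43 to 0.00, Il6 from -3.51 to 0.53, Tirap from -0.06 to 0.03 and Irak1 from -0.09 to 0.15. With male serum, Tlr2 stood at 0.18 without the Xist-rich libraries and ranged from -0.52 to 0.18 with 1 library left out, and Tnf from -0.50 to 0.44. Between hepatocyte stocks, Irak2 ranged from -0.09 to 0.01 and Tnf from -0.74 to 0.08.

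Whether replicate numbers paired the samples was not settled. Deviations of same-numbered libraries correlated at -0.01 to 0.16, and those of differently numbered libraries at -0.15 to 0.07. Between hepatocytes the ranges were 0.03 to 0.16 and -0.15 to 0.07, and between male and female serum -0.01 to 0.02 and -0.03 to 0.03. The check is weak for a group with only 2 libraries, because each then departs from their mean by the opposite of the other. With the replicate block, 1 member was called with growth hormone, 981 genes with germ-free serum, 1189 with male serum and 6266 between hepatocytes. Groups of 2 libraries, and the few CPM of Tlr4 and Tlr5, limit the precision.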
